A study of Mus musculus with 8 samples.

Results

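The circadian clock genes were followed in forepaw skin of mice after an intradermal injection of pituitary adenylate cyclase-activating polypeptide (PACAP). The set holds Per1, Per2, Per3, Cry1, Cry2, Clock, Npas2, Nr1d1, Nr1d2 and Dbp, and its members were all probes whose gene name in the scanner files is one of these. These 10 genes, of 29608 gene names on the array, were read by 14 of 39429 probes, each printed on 1 spot. Per1, Cry2, Nr1d2 and Dbp had 2 probes each, and such a gene is given by its brighter probe unless the dimmer one is named. The mice were male, 9 to 10 weeks old and kept under 12 h of light and 12 h of dark. The labels give the strain C57BL/6J for all samples. The mice were either wild type (WT) or Adcyap1r1 -/- mice, which lack the gene of the PACAP receptor PAC1R (PAC1R KO). All were anaesthetised with a mixture of agents and then received 5 µL of vehicle (saline with 0.1% BSA), alone or with 1e-07 mol/L PACAP, into the centre of the footpad. Palm skin was taken 30 or 60 min later from 6 mice of each genotype. The 8 RNA samples (WT or KO, 30 or 60 min, vehicle or PACAP) were hybridised as 4 pairs of PACAP with vehicle, each on 2 two-colour arrays with the dyes swapped. Both arrays of a pair hold the same RNA and count as 1 replicate. Which mice entered each RNA sample, whether RNA was pooled and at what hour of the light cycle the skin was taken are not given in the sources used here.

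Each genotype had a slide of its own, and the effects of both cannot be told apart. The share of spots well above background ranged from 78.6% to 94.5% over the arrays in red (Cy5) and from 54.0% to 65.3% in green (Cy3). For Adcyap1r1, the gene these mice lack, there was 1 probe, whose log2 level was lower in KO than in the matched WT sample in all 4 cases (log2 difference -0.28, standard error 0.058, adjusted p = 0.0565, limma). It was well above background on both arrays in all 8 samples, from 8.27 to 8.76 in WT and from 7.91 to 8.56 in KO, and the genotypes overlapped. Whether the probe lies in the deleted part is not given in the sources used here, so it is no check of the labels, by which samples are called WT or KO. All 6 epidermis markers, 8 skeletal muscle markers and 4 eccrine gland markers were well above background in all 8 RNA samples. The 5 tested hepatocyte markers, which skin should lack, had a mean log2 level of 8.50 in the WT vehicle sample of 60 min and between 7.21 and 7.50 in the other samples, and the 4 adipocyte markers lay between 12.24 and 12.41. The samples are bulk tissue, in which fewer cells of a type and less RNA per cell cannot be told apart.

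The circadian clock is a loop of transcription factors that runs in nearly every cell, skin included. CLOCK, or its relative NPAS2, pairs with BMAL1 (encoded by Arntl) and binds E-boxes in the promoters of the Per, Cry, Nr1d and Dbp genes. The PER and CRY proteins then repress that pair, the REV-ERB receptors encoded by Nr1d1 and Nr1d2 repress Arntl, Clock, Cry1 and Nfil3, and DBP carries the rhythm to output genes through D-boxes, which NFIL3 represses. Per1 also carries cAMP response elements and belongs to the immediate early genes of cAMP and CREB, the pathway to which PAC1R couples.

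The promoters of the members on which the comparisons turned are shown as the 250 bases before each annotated start, from RefSeq on GRCm38.p6. Of the 10 genes, 9 had an entry, with 12 windows in all. Capitals mark a CACGTG E-box in the first Per1 window (chr11:69098699-69098948, plus strand) and in Cry1 (chr10:85185055-85185304, minus strand), and TGACGTC, a shortened cAMP response element, in the second Per1 window (chr11:69099902-69100151, plus strand). Nr1d1 (chr11:98775378-98775627, minus strand) and Dbp (chr7:45704997-45705246, plus strand) held none of the motifs in these windows.
Per1, first start: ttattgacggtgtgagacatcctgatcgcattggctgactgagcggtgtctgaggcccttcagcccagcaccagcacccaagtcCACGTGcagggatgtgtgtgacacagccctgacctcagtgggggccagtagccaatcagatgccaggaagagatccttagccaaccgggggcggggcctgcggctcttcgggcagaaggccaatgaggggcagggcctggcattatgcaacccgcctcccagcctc
Per1, second start: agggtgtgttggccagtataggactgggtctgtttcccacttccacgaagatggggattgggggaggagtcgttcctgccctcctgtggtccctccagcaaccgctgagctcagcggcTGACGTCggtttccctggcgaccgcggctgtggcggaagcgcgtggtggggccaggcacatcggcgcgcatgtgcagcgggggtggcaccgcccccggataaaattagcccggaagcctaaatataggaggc
Cry1: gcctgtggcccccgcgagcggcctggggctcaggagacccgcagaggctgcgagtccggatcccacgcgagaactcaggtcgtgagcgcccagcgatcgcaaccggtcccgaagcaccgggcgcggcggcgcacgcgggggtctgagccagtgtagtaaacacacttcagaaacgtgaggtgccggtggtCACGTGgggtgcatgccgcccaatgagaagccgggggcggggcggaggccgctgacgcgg
Nr1d1: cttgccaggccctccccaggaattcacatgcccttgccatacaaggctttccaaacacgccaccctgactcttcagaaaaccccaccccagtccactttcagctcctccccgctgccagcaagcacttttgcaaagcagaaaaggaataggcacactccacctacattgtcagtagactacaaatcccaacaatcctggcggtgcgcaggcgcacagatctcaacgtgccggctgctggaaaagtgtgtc
Dbp: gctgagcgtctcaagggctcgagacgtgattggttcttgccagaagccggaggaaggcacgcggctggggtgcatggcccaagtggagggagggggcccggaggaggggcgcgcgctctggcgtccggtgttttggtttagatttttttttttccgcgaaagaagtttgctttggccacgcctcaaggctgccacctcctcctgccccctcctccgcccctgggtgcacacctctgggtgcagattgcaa

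Searched on both strands, the E-box CACGTG was in 2 of the 12 windows, 166 bases before the first Per1 start and 60 bases before the Cry1 start, against 6.02% of all 32851 promoter windows. The full cAMP response element TGACGTCA was in 0 of the 12 and in 1.55% of all windows. TGACGTC, which is part of it and was chosen after the Per1 sequence had been read, stood 132 bases before the second Per1 start and in 2.78% of all windows. The D-box TTATGTAA was found in Per3 alone among the members and in 0.819% of all windows, and TTACGTAA in no member and in 0.113%. These matches are a description of the letters and not of binding.

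Whether PACAP induced the cAMP-responsive Per genes was read from the ratio of PACAP to vehicle in each comparison. No clock gene was called in any of the 4 comparisons. The limits of 2.0-fold, 0.5-fold and p under 0.01 were those of the study, and were applied here to the mean ratio of the dye swap, with the same direction and a p from Feature Extraction under 0.01 asked of each array, a reading that the sources used here do not spell out. In the WT mice at 30 min, Per1 had the highest mean ratio of the Per genes, 1.38-fold, and in the KO mice at 30 min its ratio was 0.714-fold. Of all 39429 probes, the share up-regulated in WT was 0.254% at 30 min and 0.583% at 60 min, and in KO it was 0.601% and 0.142%. The share down-regulated was 0.0964% and 0.109% in WT, and 0.107% and 0.15% in KO.

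Per1 encodes a PERIOD repressor and is a rapid target of cAMP signals. Its brighter probe lies on chromosome 11 of mm9 from 68923364 to 68923423. In the WT mice at 30 min the log2 ratio of Per1 was 0.47 on the array with PACAP in Cy5 and 0.47 on that with PACAP in Cy3, with a Feature Extraction p of 0.0252 and 0.0242. In KO at 30 min it was -0.44 and -0.53, with a p of 0.0332 and 0.0114. The arrays of a pair thus gave nearly the same value, and the genotypes lay on opposite sides of 0 at 30 min. At 60 min the log2 ratio of Per1 was -0.07 and -0.17 in WT and 0.29 and 0.37 in KO, so the signs were turned round against those of 30 min. The dimmer Per1 probe, on chromosome 11 from 68919895 to 68919954, had mean log2 ratios of -0.01, 0.17, 0.04 and -0.24 in WT and KO at 30 min and WT and KO at 60 min, and did not follow the brighter one.

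Per2, a PERIOD repressor without which the rhythm is lost, had ratios nearer to 1. Its log2 ratio on the 2 arrays was 0.20 and 0.19 in WT at 30 min, and -0.12 and -0.13 in KO at 30 min. At 60 min it was -0.18 and -0.10 in WT and 0.18 and 0.14 in KO. The signs of Per2 were those of Per1 in all 4 comparisons, at a smaller size.

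Per3, a PERIOD repressor that the loop can run without, gave opposite values on the 2 arrays of every pair. With PACAP in Cy5 its log2 ratio of PACAP to vehicle was -2.08, -1.30, -2.22 and -2.21 in WT and KO at 30 min and WT and KO at 60 min. With PACAP in Cy3 it was 2.24, 1.94, 1.97 and 1.33 in the same order. By the Feature Extraction ratios, the green signal exceeded the red one by between 2.46-fold and 4.72-fold on all 8 arrays. It did so whichever RNA it held, so the Per3 values followed the dye and not the treatment. Only 0.221% of 30350 tested probes were brighter in green by 2.0-fold or more on all 8 arrays. Averaged over the dye swap, the log2 ratio of Per3 was 0.08, 0.32, -0.13 and -0.44. Counted on a single array by these ratios, Per3 would have been down-regulated with PACAP in Cy5 and up-regulated with PACAP in Cy3 in each of the 4 comparisons. With background correction by normexp and normalization by loess, the split between the dyes kept its sign but was smaller. The log2 ratio of Per3 was then -0.57, -0.38, -0.47 and -0.68 with PACAP in Cy5, in the same order. With PACAP in Cy3 it was 0.64, 0.54, 0.85 and 0.70, and no array reached 2.0-fold. The log2 level of Per3 was between 6.36 and 6.65. Across all tested probes, the Feature Extraction ratios of the 2 arrays of a pair had Pearson correlations of -0.27 (30 min) and -0.335 (60 min) in WT, against -0.083 and -0.437 in KO. These correlations are across probes, which are not independent replicates. As they lay below 0 in all 4 comparisons, the difference between the dyes was larger than that between PACAP and vehicle over the tested probes as a whole, and the direction of each ratio rests on the dyes given in the labels.

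**Figure D1:**
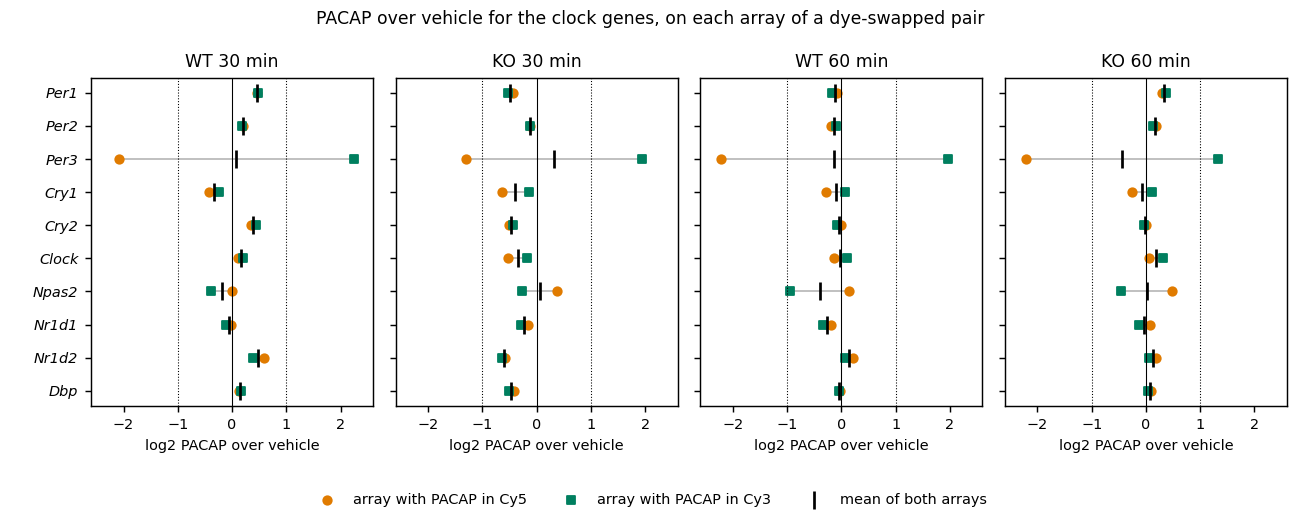
The log2 ratio of PACAP to vehicle (horizontal axis) of the brightest probe of each clock gene in the 4 comparisons, with the array that held PACAP in Cy5 as a circle, the array with PACAP in Cy3 as a square, and the mean of both as a bar. Dotted lines mark 2.0-fold and 0.5-fold. For Per3 the arrays lie at -2.08 and 2.24 in WT at 30 min, while for Per1 they coincide at 0.47.

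The CRY repressors differed from each other. For Cry2 the log2 ratio on the 2 arrays was 0.35 and 0.44 in WT and -0.50 and -0.44 in KO at 30 min. At 60 min the means of Cry2 were -0.04 in WT and -0.02 in KO. Cry2 thus lay on opposite sides of 0 in the genotypes at 30 min, as Per1 did, while Cry1 was below 0 in both. The log2 ratio of Cry1 was -0.42 and -0.25 in WT at 30 min and -0.64 and -0.15 in KO at 30 min. At 60 min the arrays of Cry1 disagreed in sign in both genotypes, with means of -0.11 and -0.07.

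Among the REV-ERB genes, Nr1d2 had the highest ratio of all members in WT and the lowest in KO at 30 min. Its log2 ratio on the 2 arrays was 0.59 and 0.38 in WT and -0.58 and -0.64 in KO at 30 min, with a Feature Extraction p below 0.01 on both KO arrays but a mean of 0.655-fold. At 60 min its mean was 0.14 in WT and 0.13 in KO. The second Nr1d2 probe had means of 0.28 and -0.47 at 30 min, of the same signs. Nr1d1, the more rhythmic REV-ERB gene, had means of -0.06 and -0.23 in WT and KO at 30 min and of -0.26 and -0.03 at 60 min.

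Dbp, an output factor of the clock, had a log2 ratio of 0.13 and 0.17 on the 2 arrays in WT and of -0.42 and -0.51 in KO at 30 min, and its second probe gave means of 0.09 and -0.48. At 60 min the means of Dbp were -0.04 in WT and 0.07 in KO. The activator gene Clock had means of 0.16, -0.35, -0.02 and 0.19 in WT and KO at 30 min and WT and KO at 60 min. Npas2 exceeded background well in the red channel only, hence on 1 array of each RNA sample, and its arrays differed in sign or lay at 0. Its ratio is therefore near the limit of measurement.

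By gene, the members lay above 0 on both arrays in 6 of 10 cases and below 0 in 2 in WT at 30 min, where 26.4% of tested probes were above 0 on both arrays and 28.5% below. In KO at 30 min these were 0 and 8 of 10, with 28.7% and 33.7% of all probes. At 60 min they were 1 and 5 in WT, with 20% and 24.2%, and 5 and 1 in KO, with 22.2% and 22.3%. The median log2 ratio of the 10 genes was 0.16 at 30 min and -0.11 at 60 min in WT, against -0.37 and 0.04 in KO. The median over all tested probes at 30 min was -0.05 (WT) and -0.01 (KO). With 1 pair of RNA samples per comparison, none of these counts has a replicate between animals.

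A list of 20 other clock genes, among them Arntl, Rora, Nfil3, Tef and Hlf, had medians of 0.14 and -0.28 in WT and KO at 30 min and of -0.01 and 0.00 at 60 min. None of its members reached the thresholds. The lowest mean log2 ratio in KO at 30 min was that of Tef, a relative of Dbp, at -0.75, against 0.31 in WT. The highest in WT at 30 min was that of Usp2, a deubiquitinase gene under clock control that was named after its value was seen, at 0.70, against -0.40 in KO.

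Other CREB targets and immediate early genes were read from a list of 13, of which 12 were tested. None was called in any comparison. In WT at 30 min, 10 of the 12 lay above 0 on both arrays, with a median log2 ratio of 0.54, against 0.16 for the clock genes. As examples chosen after their values were seen, Fos was 0.92 and 0.86 on the 2 arrays, Egr1 1.09 and 0.82, and Nr4a1, a nuclear receptor gene induced by cAMP, 0.86 and 0.73. With vehicle at 30 min the log2 level was 11.59 in WT and 12.36 in KO for Fos, and 11.69 and 12.52 for Egr1. Crem, of the same list and also named after its values were seen, went the other way at 30 min. Its log2 level went from 8.86 with vehicle to 8.72 with PACAP in WT, and from 8.97 to 9.58 in KO. That of Junb went from 7.73 to 7.69 in WT. In KO at 30 min the list had a median of -0.12, with 5 genes above and 7 below 0 on both arrays, and at 60 min medians of -0.12 in WT and 0.12 in KO. A list of 10 glucocorticoid- and fasting-responsive genes, several of which follow the daily hormone rhythm, had medians of 0.31 and -0.22 at 30 min and of -0.02 and 0.11 at 60 min. Its member Klf9, a transcription factor gene that was also chosen after its values were seen, was 0.54 and 0.94 on the 2 arrays in WT and -0.52 and -0.48 in KO at 30 min.

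Markers of skeletal muscle had medians of the same signs at 30 min, with 1 of 8 called up in WT and 3 of 8 called down in KO. The mean log2 level of the 8 muscle markers was 12.39 with vehicle and 13.18 with PACAP in WT, and 12.80 and 12.10 in KO, with all 8 above 0 on both arrays in WT and 7 of 8 below 0 in KO. Their median log2 ratio was 0.80 and -0.70. The 6 epidermis markers had medians of 0.10 and -0.79, with mean levels of 15.51 and 15.60 in WT and of 15.83 and 15.00 in KO, and 2 of the 6 were called down in KO. The muscle and epidermis markers were well above background in every sample. Larger shifts were seen in the 7 hair shaft and inner root sheath markers, whose median log2 ratio in WT was 0.65 at 30 min and 2.47 at 60 min, against 1.40 and -0.48 in KO. In KO at 30 min and in WT at 60 min all 7 hair markers were called up, and they lay above 0 in WT and KO alike at 30 min, unlike the clock genes. The 5 hepatocyte markers had a median of -1.90 in WT at 60 min, with 4 called down, and of -0.01, 0.36 and -0.03 in WT at 30 min and KO at 30 and 60 min. The part of tissue makeup in the ratios of the clock genes was not tested.

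**Figure D2:**
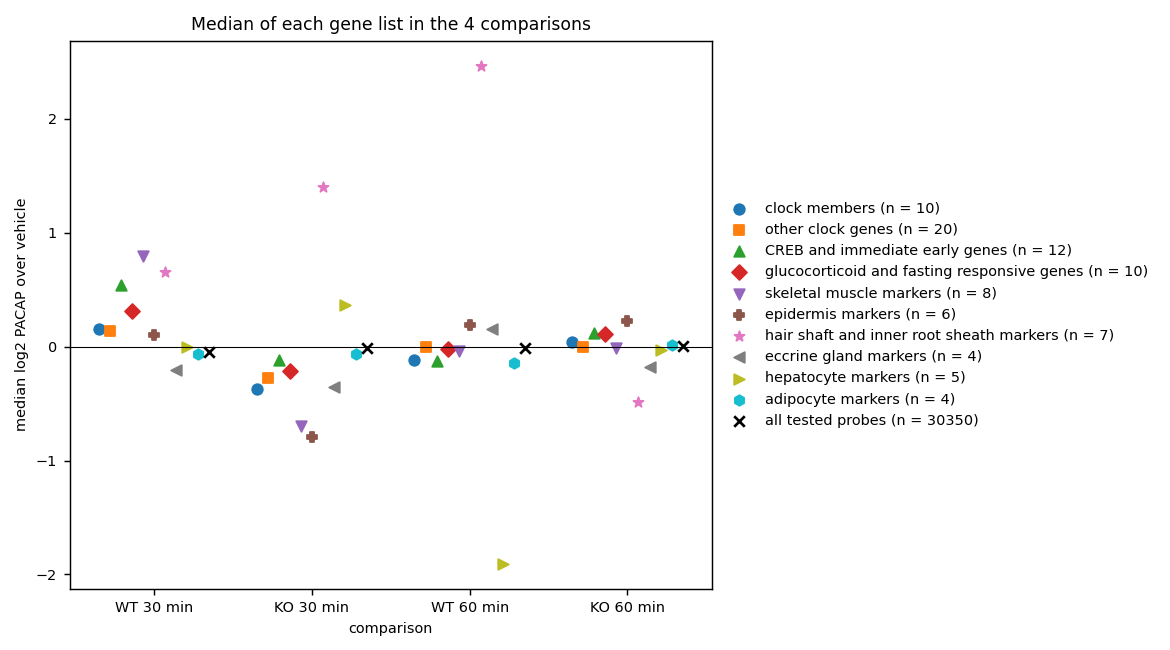
Median log2 ratio of PACAP to vehicle (vertical axis) of each gene list in the 4 comparisons (horizontal axis), with n genes per list and all 30350 tested probes as crosses. At 30 min the clock genes lie at 0.16 in WT and -0.37 in KO, the skeletal muscle markers at 0.80 and -0.70, the epidermis markers at 0.10 and -0.79, and the hair markers at 0.65 and 1.40.

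Whether a gene shifted alike in all 4 comparisons was asked with limma, taking each comparison as 1 value. None of the 30350 probes was called after Benjamini-Hochberg adjustment (0% in either direction), and 678 lay below 0.05 before it. For Per1 the mean log2 ratio was 0.05 (standard error 0.17, 95% interval from -0.36 to 0.46, adjusted p = 1.0). The smallest unadjusted p of a member was that of Cry1, with a mean of -0.23 (standard error 0.097, adjusted p = 1.0, limma) and below 0 in 4 of 4 comparisons.

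The PACAP effect in KO was also set against that in WT, each genotype giving 1 value per time. No probe passed in limma with Benjamini-Hochberg adjustment (0% in either direction), and 972 had an unadjusted p under 0.05. For Per1 the log2 difference of the effects was -0.25 (95% interval from -1.09 to 0.59, adjusted p = 0.86). Nr1d2 had the largest difference among the members, -0.55 by its brighter probe (standard error 0.30, adjusted p = 0.84). Whether the opposite signs of Per1 at 30 min differ between the genotypes could not be tested at that time alone, with 1 RNA pair each.

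The levels of the clock genes in the 8 RNA samples were then compared between the times, since both vehicle and PACAP skin were sampled at 30 and 60 min. Levels are log2 intensities, background-corrected by normexp, normalized by loess and Aquantile, and averaged over both dyes, and serve to compare samples for the same probe and not different probes. At 60 min Nr1d1, Clock and the dimmer Cry2 probe were lower and Cry1 and the dimmer Per1 probe higher than at 30 min past an adjusted p of 0.05. Dbp had the widest range of all members, with the WT samples of 60 min far below the rest. In all, 5 of the 14 member probes passed, 2 upwards and 3 downwards, where 5.71% of 30350 tested probes passed upwards and 3.64% downwards. These calls come from a fit that keeps the hybridised pair as a random block. When each pair was averaged to 1 value, 0 probes passed, so no call between the times held for pair means. The 4 pair means, fitted on genotype and time, leave little spread to test against, so that fit had little power to pass any probe. The adjusted p for pair means is given beside those of clock genes.

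Nr1d1 encodes REV-ERBα, read by a probe on the minus strand of chromosome 11 (mm9), between 98630526 and 98631028. In the WT mice its log2 level was 9.97 with vehicle and 9.95 with PACAP at 30 min, and 8.62 and 8.44 at 60 min. In the KO mice it was 9.34 and 9.18 at 30 min, and 8.56 and 8.57 at 60 min. All 4 samples of 60 min lay below all 4 of 30 min, as for 11.9% of tested probes. The mean was 9.61 ± 0.41 (SD, n = 4) at 30 min and 8.55 ± 0.08 (SD, n = 4) at 60 min. The log2 difference of Nr1d1 was -1.06 (standard error 0.16, adjusted p = 0.0239, limma), and the adjusted p was 0.230 for pair means. In WT the level at 60 min was 0.371-fold of that at 30 min, and in KO 0.617-fold.

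Dbp was read by probes on chromosome 7 of mm9, the brighter one from 52965322 to 52965381. In WT its log2 level was 13.25 with vehicle and 13.41 with PACAP at 30 min, and 11.89 and 11.83 at 60 min. In KO it was 13.71 and 13.27 at 30 min, and 13.09 and 13.13 at 60 min. The samples of 60 min lay below those of 30 min in both genotypes, and the WT samples of 60 min stood apart by over 1.0 from all others. The second Dbp probe showed the same, from 12.72 and 12.78 to 11.35 and 11.25 in WT and from 13.17 and 12.70 to 12.55 and 12.57 in KO. Neither Dbp probe passed the test, with log2 differences of -0.93 (standard error 0.25, adjusted p = 0.0762, limma) and -0.91 (adjusted p = 0.0757). In WT the level at 60 min was 0.361-fold of that at 30 min, and in KO 0.767-fold.

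Both Dbp probes and Nr1d1 were among 18 probes (0.0593% of those tested) that were lower by 1.0 or more on the log2 scale at 60 min in WT, with vehicle as well as with PACAP. The others, named after their values were seen, read Ahnak, Arap2, Dst, Eif3c, Fbn1, Flg, Iffo2, Igsf3, Klf3, Loxl2, Maf, Rptn, Tfcp2l1, Tmprss11e and Trp63. The median log2 difference of the 6 epidermis markers in WT was -0.21 with vehicle and -0.03 with PACAP. The KO mice had 13 such probes (0.0428%), with 0 clock genes among them. Whether the difference between 60 and 30 min differs between the genotypes was not tested, since 4 pairs leave no spread between pairs for such a term.

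Cry1, read on chromosome 10 from 84594731 to 84594790, went the other way. Its log2 level in WT was 8.34 with vehicle and 8.10 with PACAP at 30 min, and 8.99 and 8.97 at 60 min. In KO it was 8.44 and 8.13 at 30 min, and 8.83 and 8.78 at 60 min. All 4 samples of 60 min lay above all 4 of 30 min, as for 9.12% of tested probes. The log2 difference of Cry1 was 0.64 (standard error 0.085, adjusted p = 0.0193, limma), and the adjusted p was 0.230 for pair means. The level at 60 min was 1.70-fold of that at 30 min in WT and 1.44-fold in KO.

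The second CRY gene gave a split result. The dimmer Cry2 probe was at 8.16 and 8.30 in WT and 7.68 and 7.52 in KO at 30 min, and at 7.31 and 7.34 in WT and 7.14 and 7.19 in KO at 60 min, without overlap. Its log2 difference was -0.67 (standard error 0.12, adjusted p = 0.0304, limma, and 0.231 for pair means). The brighter Cry2 probe ranged from 10.87 to 11.62 at 30 min and from 11.03 to 11.32 at 60 min, with a difference of -0.09 (adjusted p = 0.812). The 2 Cry2 probes carry different transcript accessions in the files, so the change cannot be given for the gene as a whole.

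Clock was at 10.55 and 10.73 in WT and at 10.57 and 10.24 in KO at 30 min, with vehicle first. At 60 min it was at 9.97 and 10.04 in WT and at 9.89 and 10.02 in KO, below all samples of 30 min. Its log2 difference was -0.54 (standard error 0.11, adjusted p = 0.0433, limma, and 0.230 for pair means). Its relative Npas2 lay between 6.03 and 6.08 in all 8 samples, close to background, and did not pass (difference 0.03, adjusted p = 0.641).

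The PERIOD genes had no common direction. Per1 was at 11.83 with vehicle and 12.34 with PACAP in WT at 30 min, and at 11.54 and 11.46 in WT at 60 min. In KO it was at 12.07 and 11.59 at 30 min, and at 12.05 and 12.33 at 60 min. The times overlapped (log2 difference -0.11, standard error 0.27, adjusted p = 0.821, limma). In WT the level of Per1 at 60 min was 0.667-fold of that at 30 min and in KO 1.28-fold. The dimmer Per1 probe rose slightly without overlap, from between 6.58 and 6.76 to between 6.86 and 7.00 (log2 difference 0.25, adjusted p = 0.0316, and 0.252 for pair means), and was above background on 1 of 2 arrays in 1 of the 8 samples. Per2 (between 7.60 and 8.13, difference -0.10, adjusted p = 0.387) and Per3 (between 6.36 and 6.65, difference 0.06, adjusted p = 0.522) did not pass.

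Nr1d2, which encodes REV-ERBβ, was at 11.60 and 12.08 in WT at 30 min and at 10.97 and 11.16 at 60 min. In KO it was at 12.07 and 11.45 at 30 min and at 11.50 and 11.62 at 60 min. The WT samples of 60 min were the lowest of the 8, but the times overlapped in KO, and the log2 difference of -0.49 did not pass (adjusted p = 0.229, limma).

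**Figure D3:**
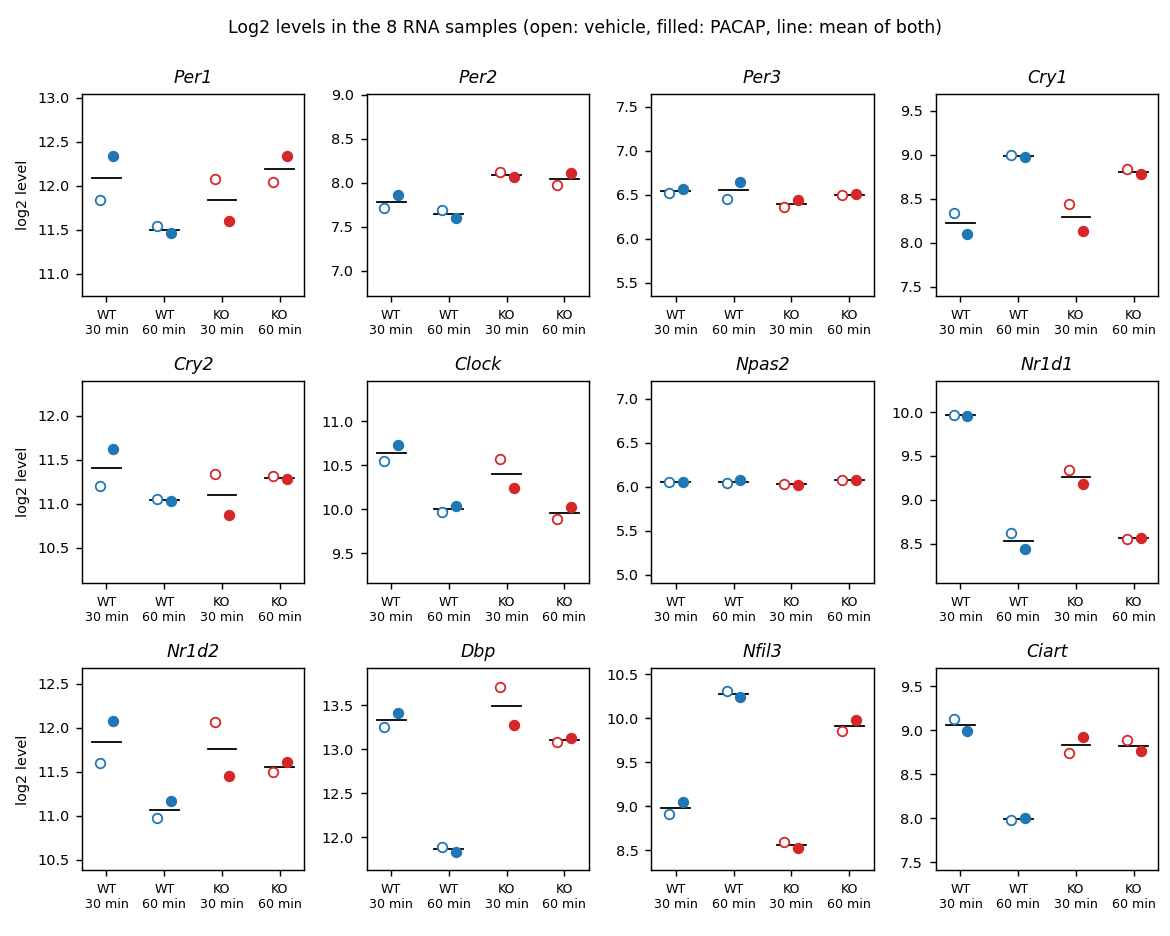
Log2 level (vertical axis, each panel spanning the same number of log2 units) of the 10 clock genes and of Nfil3 and Ciart in the 8 RNA samples, grouped by genotype and time (horizontal axis), with vehicle open, PACAP filled and the mean of both as a line. Nr1d1 drops from 9.97 and 9.95 to 8.62 and 8.44 in WT, and Nfil3 climbs in both genotypes.

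Of the 20 other clock genes, 2 rose and 2 fell between the times, where 5.71% and 3.64% of all tested probes did. Nfil3, the D-box repressor, was at 8.91 and 9.04 in WT and 8.59 and 8.52 in KO at 30 min, and at 10.31 and 10.24 in WT and 9.85 and 9.98 in KO at 60 min. It rose in both genotypes, by 2.46-fold in WT against 2.56-fold in KO (log2 difference 1.33, standard error 0.061, adjusted p = 0.010, limma, and 0.230 for pair means). The rise was over 1.0 with vehicle and with PACAP in both genotypes, as for 0.0725% of tested probes in WT and 0.418% in KO. The kinase gene Wee1, an E-box target that gates mitosis, rose by 0.60 (adjusted p = 0.0432). Arntl2 fell by 0.29 (adjusted p = 0.0427), and Timeless fell by 0.31 (adjusted p = 0.0203). For pair means the adjusted p of these 3 was 0.260, 0.260 and 0.231.

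The loop's other partners did not pass. Arntl, which encodes BMAL1, was at 9.72 and 9.61 in WT at 30 min and at 10.05 and 10.11 at 60 min, while in KO it was at 9.47 and 9.26 and then at 9.41 and 9.36 (log2 difference 0.22, adjusted p = 0.217). Ciart, a repressor of CLOCK and BMAL1, went from 9.13 and 8.99 to 7.98 and 8.01 in WT, or to 0.477-fold, and from 8.74 and 8.92 to 8.89 and 8.76 in KO, or to 0.998-fold (adjusted p = 0.190 over both). Rora, whose product activates Arntl, was at 0.492-fold in WT and at 0.881-fold in KO at 60 min. Hlf, a relative of Dbp, was at 0.522-fold and 0.986-fold. Over all 20 genes the median log2 difference was -0.24, against -0.10 for the 10 members and -0.02 for all tested probes.

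**Figure D4:**
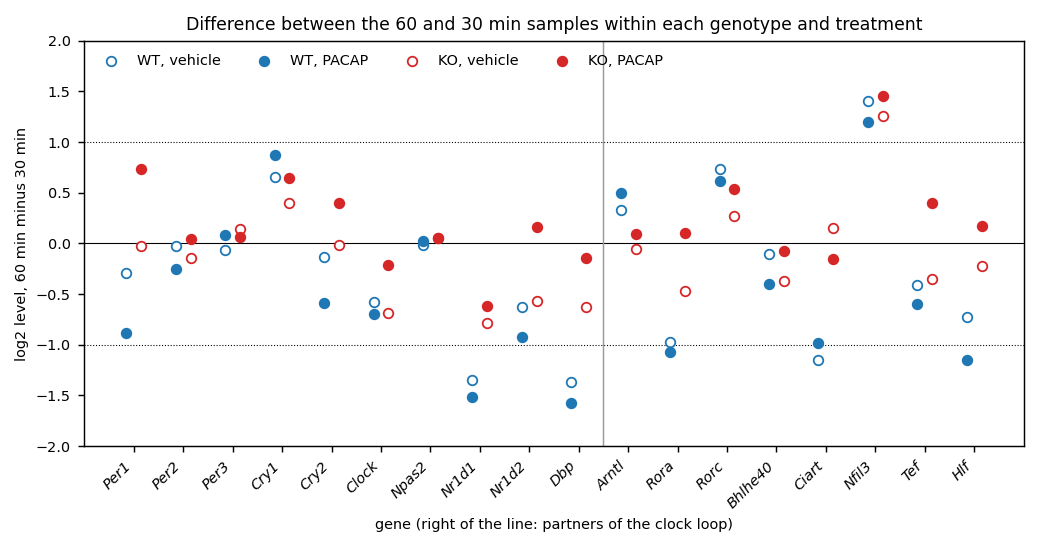
Log2 level at 60 min minus that at 30 min (vertical axis) for the clock genes and 8 partners of the loop (horizontal axis), within WT (blue) and KO (red), for vehicle (open) and PACAP (filled) samples, with dotted lines at 1.0 and -1.0. Dbp and Nr1d1 lie below -1.0 for both WT points, and Nfil3 lies above 1.0 for all 4 points.

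No marker of another tissue passed between the times. The mean log2 level of 7 hair shaft and inner root sheath markers was between 8.89 and 10.38 at 30 min and between 9.42 and 12.18 at 60 min, with overlap, and their median log2 difference was 1.34. The median difference of the 7 hair markers was -0.44 with vehicle and 1.37 with PACAP in WT, and 3.44 and 1.31 in KO. That of the 5 hepatocyte markers was 1.23 with vehicle and 0.18 with PACAP in WT, and -0.07 and -0.18 in KO. The muscle markers lay between 12.10 and 13.18 at 30 min and between 12.79 and 12.98 at 60 min, and the epidermis markers between 15.00 and 15.83 and between 15.31 and 15.59. The hair, muscle and epidermis markers were above background in every sample, and 2 of the 5 hepatocyte markers were. Of the CREB list, Atf3 rose by 1.26 (adjusted p = 0.0310, limma) and Junb by 0.19 (adjusted p = 0.0457), and of the glucocorticoid list Tsc22d3 by 0.56 (adjusted p = 0.0337), and none of the 3 was called for pair means. The part of these genes and markers in the clock values was not tested. As the hour of sampling is not given, it and the time since injection cannot be told apart.

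The calls between the times were lost without certain single RNA samples, while the differences kept their sign and moved more for some probes than for others. Over 14 settings the log2 difference lay between -1.25 and -0.90 for Nr1d1 and between 0.52 and 0.83 for Cry1. It lay between -0.65 and -0.44 for Clock, between -1.04 and -0.55 for the dimmer Cry2 probe and between 0.23 and 0.40 for the dimmer Per1 probe. Without the WT vehicle sample of 30 min, or without the KO vehicle sample of 30 min, 0 probes passed, and the adjusted p of Nr1d1 was 0.0808 and 0.237, with an estimated correlation of the pair of 0.248 and 0.728 against 0.179 over all 8 samples. Without the WT PACAP sample of 60 min, 2 member probes passed, where 4.8% of all tested probes did, and 3 without the KO vehicle sample of 60 min, where 4.57% did. Without the KO PACAP sample of 30 min 9 passed, both Dbp probes among them (adjusted p = 0.0123 and 0.0126), but so did 33.3% of all tested probes. Within the vehicle samples alone no probe passed and the adjusted p of Nr1d1 was 0.139, with a log2 difference of -1.06, and within the PACAP samples alone it was 0.874. The fits on vehicle or PACAP samples alone rest on 4 samples each and had little power to pass any probe. The sign of none of the 5 member probes that passed changed under the 14 settings.

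Between the genotypes, Per2 was the only member that passed. Its log2 level was 7.71 and 7.86 at 30 min and 7.69 and 7.60 at 60 min in WT, and 8.13 and 8.06 at 30 min and 7.98 and 8.11 at 60 min in KO. All 4 KO samples lay above all 4 WT samples, as for 8.5% of tested probes, and they differed by 0.35 on the log2 scale (standard error 0.065, adjusted p = 0.0476, limma), where 2.19% of tested probes passed upwards. For pair means the adjusted p was 0.398, and without the WT or the KO vehicle sample of 30 min, the WT PACAP sample of 60 min or the KO vehicle sample of 60 min it was 0.171, 0.346, 0.0701 and 0.069, with 0 probes called in each case. Of the other clock genes, Nfil3 was lower in KO by a log2 difference of -0.39 (adjusted p = 0.0386), where 2.17% of tested probes passed downwards, and Timeless higher by 0.23 (adjusted p = 0.0483), each with an adjusted p of 0.398 for pair means. The dimmer probe of Csnk1d, a kinase gene whose product phosphorylates PER proteins, was lower in KO without overlap, by -0.39 (adjusted p = 0.0360, limma, and 0.398 for pair means), while its brighter probe did not pass (-0.17, adjusted p = 0.565). Arntl was lower in KO without overlap, as for 9.48% of tested probes, by -0.50, and did not pass (adjusted p = 0.0552). Dbp was higher in KO by 0.70 without passing (adjusted p = 0.156), with the WT samples of 60 min as the lowest of the 8.

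The genes whose pattern over the 8 RNA samples was most like that of the members with the widest ranges were found by the root-mean-square difference of mean-centred log2 levels among 20274 and 20275 probes above background in every sample. For Dbp these were Emilin2 (0.318), the clock gene Ciart (0.334), Scel (0.334), Neat1 (0.348) and Fbn1 (0.350). For Nr1d1 they were Eif3c (0.179), Arap2 (0.180), Zmynd8 (0.183), Trps1 (0.194) and Bmp2k (0.203). Except for Ciart, these genes are on none of the clock lists, and the 8 samples share slides and arrays.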

How the data were processed

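Gene expression in mouse palm skin was measured on 8 Agilent two-colour arrays, with 4 RNA pairs in swapped dyes. The authors scanned and extracted the arrays with Feature Extraction (12.0.3.1 per the file headers, 11.0.1.1 per the labels). The deposited log10 ratio of each spot sets red over green after background subtraction and dye normalization, and the deposited p-values cover the error of 1 array. The deposited intensity values are mean signals, local backgrounds and processed signals per channel. The authors' series matrix holds the same processed ratios on the log10 scale.

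Control and outlier spots (between 198 and 342 per array) were left out, and 0 spots were saturated. Each ratio was signed as PACAP over vehicle, and both arrays of a pair were averaged. Levels were made from mean signals by normexp (offset 50), loess and Aquantile and averaged over the dye swap. With limma 3.58.1 in R 4.3.3 (lmFit, eBayes, Benjamini-Hochberg over the 30350 probes that exceeded background well in 1 or both channels of all arrays, threshold 0.05), the mean of the 4 comparisons was set against 0, KO against WT with 2 values each, and the 8 levels were fitted on genotype, time and treatment with the hybridised pair as a random block (estimated correlation 0.179). The fits were tested on simulated data, where the block fit underestimated the correlation of a pair and made more false calls than its threshold allows, so values from pair means stand beside its calls. Tables and plots were made with Python 3.11.15, numpy 2.4.6, pandas 2.3.3 and matplotlib 3.10.9.

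The named genes are the 10 members, Adcyap1r1, the listed partners of the loop or members past a threshold, and the 5 genes most like each of the 2 members with the widest range. A few examples outside this rule are marked in the text. The clock genes, the lists (other clock genes, CREB and immediate early, glucocorticoid and fasting, epidermis, hair shaft and inner root sheath, skeletal muscle, eccrine gland, hepatocyte and adipocyte) and the tests were chosen with earlier results of these data known. Gene names and probe coordinates (mm9) are those of the files. The number of arrays limits the precision, and p-values measure only the spread between 4 RNA pairs or 8 RNA samples, for which separate animals are not stated. Alternatives were other normalizations, filters, thresholds, single arrays, left-out samples, other covariates and, chosen after seeing the data, pair means.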

Additional observations from a re-analysis of the deposited data

Results flagged for a closer look

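Of 28 groups tested (the vehicle and the PACAP samples of each member probe, 4 RNA samples each), 1 held a sample far from the others. The second Dbp probe had its lowest PACAP level, 11.25, in the WT sample of 60 min, 1.32 below the next one, which is a gap of 0.859 of the range of the 4 samples and exceeds Dixon's critical value. Chance alone gives about 1 such group in 20, so 1 flag among 28 groups is no more than chance gives. Each group also mixes both genotypes and both times, while Dixon's test takes a group as 1 population. For the second Dbp probe the matched vehicle sample was also the lowest of its group, at 11.35. The brighter Dbp probe was not flagged.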

How the results depend on the processing

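No paired analysis was possible because the replicate numbers in the labels mark the 2 dye orientations of the same RNA pair, which were averaged before any fit, so that the numbers pair no samples. The pairing of PACAP with vehicle RNA on an array is kept in the ratios and in the block. With replicate 1 or replicate 2 left out, 1 member probe (Per3) was called in each of the 4 comparisons in place of 0. In the other settings for the ratios 0 members were called, and no setting turned the sign of a member that had passed a test. For the mean of the comparisons, between 0 and 1 probes were called with 1 comparison left out. For KO against WT effects, 17 probes were called with the time point as a covariate and between 0 and 170 with 1 comparison left out, with 0 members in each case. For 60 against 30 min, 2838 probes and 5 members were called, against 4850 probes without the block, 0 probes and 0 members in the vehicle samples, the PACAP samples or the pair means, and between 0 and 10114 probes and 0 and 9 members with 1 RNA sample left out. For the level of KO against WT, 1322 probes and 1 member were called, against 3117 probes without the block, 2613 probes and 0 members with quantile-normalized processed signals, 2306 probes without the filter on dim probes, 0 probes and 0 members in the vehicle samples, the PACAP samples or the pair means, and between 0 and 5753 probes and 0 and 4 members with 1 RNA sample left out. Where a fit keeps 1 sample in an arm, that sample is assumed to vary like the others. The cause of these differences was not tested. Npas2 was well above background on both arrays in 0 of 8 RNA samples, the dimmer Per1 probe in 7 and the other member probes, Per3 included, in all 8.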
